A study of Mus musculus with 13 samples.

Results

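The 31 genes described here encode the cholesterol and fatty acid synthesis machinery of the mouse. They were taken by symbol from a table of 54513 gene symbols, and all 31 were found and had enough counts to be tested among the 20468 genes tested. They comprise 17 enzymes of the sterol branch, 10 enzymes of the fatty acid branch, and 4 genes that regulate the pathway or carry sterols. The choice of genes did not use their values in a comparison, but it was made with earlier results of these data known.

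Both branches start from acetyl-CoA. The sterol branch builds mevalonate, isoprenoid units, squalene and lanosterol, and then trims and reduces the sterol ring to cholesterol. The fatty acid branch turns citrate into acetyl-CoA and malonyl-CoA, assembles palmitate, and elongates and desaturates it. SREBP transcription factors, held back in the endoplasmic reticulum by INSIG proteins when sterol is plentiful, drive many of these genes. In lung, alveolar type 2 cells use fatty acids and cholesterol for surfactant, and adipocytes attached to the tissue carry a strong fatty acid synthesis program.

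Male C57Bl/6 mice aged 7-8 weeks received bleomycin, a drug that injures the lung and leads to fibrosis, or saline, and lungs were taken at day 21. RNA came from 10 µm sections of formalin-fixed, paraffin-embedded lung, and 8 ng per library went into a stranded total RNA kit for low input. The 13 libraries fell into 5 saline libraries of batch 1 (replicates 1 to 5), 4 bleomycin libraries of batch 1 (replicates 5 to 8) and 4 bleomycin libraries of batch 2 (replicates 1 to 4). The bleomycin dose and route are not given in the labels, and no label states what the batch number marks. Since batch 2 had no saline, treatment was compared within batch 1, and batch 2 is set beside it. No label says that each library came from its own animal, so a p-value here covers only the spread among these libraries, which may be technical.

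Library totals ran from 6337147 to 28885129 counts (median 15859315). Batch 2 was the shallowest group, with 6337147 to 12982422 counts, and batch 1 bleomycin had 21727502 to 28885129. The title of bleomycin replicate 8 says control, while its treatment label and library name say bleomycin. Its summed level of 8 macrophage markers was 775 CPM (counts scaled to a common library total). Saline had 161 to 176 CPM, and bleomycin replicates 5 to 7 had 365, 763 and 630 CPM. Replicate 8 was kept in the group that its treatment label gives. Without it, 9 of the 12 members called below kept their call, and the other 3 are named with their values. Alveolar type 2 markers were present in every library, with summed levels of 10 genes of 6952 to 9001 CPM across saline, 3027 to 5839 CPM across batch 1 bleomycin and 3823 to 9382 CPM in batch 2.

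In batch 1, 10 of the 31 genes were lower after bleomycin, 2 were higher, and 19 did not pass the test (edgeR's quasi-likelihood test, Benjamini-Hochberg adjusted over all genes tested, threshold 0.05). A gene past that threshold is named called. Lower calls took 32.3% of the members against 13.4% of all genes tested, and higher calls took 6.45% against 17.5%. Calls in either direction took 38.7% of the members, close to the 30.9% of all genes. For 11 members (35.5%) the bleomycin and saline libraries of batch 1 did not overlap, against 25.3% of all genes. The median log2 change was -0.33 over the members and 0.03 over all genes tested. A bulk section cannot tell fewer cells of a type apart from less RNA per cell, and this holds for every change given here.

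**Figure D1:**
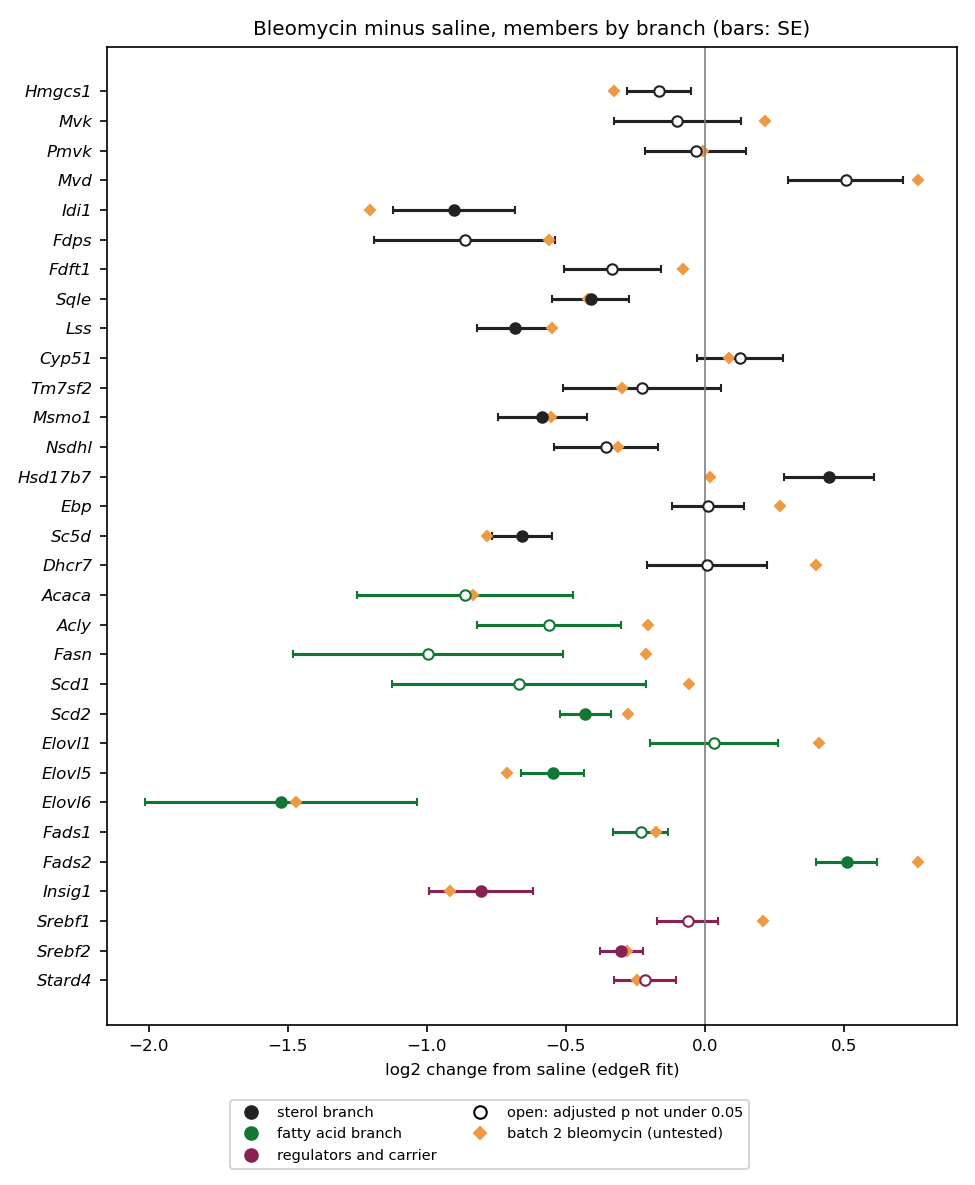
Log2 change of each of the 31 genes between batch 1 bleomycin and saline with its standard error, and the batch 2 bleomycin minus saline difference beside it, which was not tested. Filled points mark the 12 called genes and open points the others: 10 filled points lie below 0, while Fads2 and Hsd17b7 lie above it.

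In the sterol branch 5 of 17 enzymes were lower and 1 was higher, and the branch median was -0.23. In the fatty acid branch 3 of 10 were lower and 1 was higher, and the median was -0.55, or -0.32 with the adipocyte covariate described below. Of the 4 regulators and carrier genes, 2 were lower and none was higher, with a median of -0.26. In all, 12 of the 17 sterol enzymes and 8 of the 10 fatty acid enzymes had a negative change, against 9737 of the 20468 genes tested. Lower calls took 29.4% of the sterol and 30% of the fatty acid enzymes, against 13.4% of all genes. Calls in either direction took 35.3% and 40%, near the 30.9% of all genes, and the 4 regulators and carrier genes are too few for a share. The difference between the branches was not tested.

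Promoter sequence is shown for 3 called sterol enzymes and for Elovl6, the fatty acid enzyme with the most negative change, because the CCAAT box, the letters bound by NF-Y, was found for every sterol enzyme searched and not for Elovl6. The sequences are the 250 bases before the annotated start, from the RefSeq promoter table of build GRCm38.p6, each written in the direction of its gene. Capitals mark CCAAT or its reverse complement ATTGG.
Sc5d chr9:42264301-42264550 (minus strand): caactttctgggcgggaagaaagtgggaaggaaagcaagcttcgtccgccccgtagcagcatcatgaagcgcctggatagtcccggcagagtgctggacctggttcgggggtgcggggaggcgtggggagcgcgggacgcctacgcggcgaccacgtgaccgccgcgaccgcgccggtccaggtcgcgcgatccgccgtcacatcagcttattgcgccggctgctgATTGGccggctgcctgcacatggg
Lss chr10:76531355-76531604 (plus strand): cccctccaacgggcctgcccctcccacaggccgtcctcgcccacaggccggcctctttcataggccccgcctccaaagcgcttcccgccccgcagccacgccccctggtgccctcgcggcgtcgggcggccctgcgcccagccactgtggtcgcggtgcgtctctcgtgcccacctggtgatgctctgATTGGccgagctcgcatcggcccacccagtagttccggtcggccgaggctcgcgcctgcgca
Hsd17b7 chr1:169969206-169969455 (minus strand): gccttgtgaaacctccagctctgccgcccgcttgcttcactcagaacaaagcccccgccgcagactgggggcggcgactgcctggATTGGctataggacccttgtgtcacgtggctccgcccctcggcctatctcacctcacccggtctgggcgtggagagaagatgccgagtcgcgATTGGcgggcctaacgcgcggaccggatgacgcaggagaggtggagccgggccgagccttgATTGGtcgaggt
Elovl6 chr3:129532136-129532385 (plus strand): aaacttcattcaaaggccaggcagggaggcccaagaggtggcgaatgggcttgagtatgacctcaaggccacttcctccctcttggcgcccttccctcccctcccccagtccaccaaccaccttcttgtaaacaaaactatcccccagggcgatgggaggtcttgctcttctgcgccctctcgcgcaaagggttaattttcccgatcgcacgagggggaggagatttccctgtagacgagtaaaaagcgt

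Of the 31 genes, 24 matched that table by symbol, and Fdps, Fdft1, Sqle, Scd1, Scd2, Fads1 and Stard4 did not. Each table entry holds 300 bases, 250 before and 50 after the start, and both strands were searched. CCAAT was found in at least 1 promoter of all 14 matched sterol enzymes, of 4 of 7 fatty acid enzymes and of 3 of 3 regulators, against 41.1% of the 27025 genes in the table. GGGCGG, the letters of an Sp1 box, was found for 13 of 14, 3 of 7 and 3 of 3, against 38.2% of genes. TCACNCCAC, the core of a sterol regulatory element, was found for Hmgcs1 alone among the 24, against 1.44% of genes, and CACGTG, an E-box, for 5 of the 24, against 8.09%. Matches of different motifs can share letters at their ends. A match is only a description of letters, and no match says only that they are not in this window. Called and uncalled sterol enzymes alike carried CCAAT.

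Of the 17 sterol enzymes, Sc5d, the lathosterol oxidase that puts a double bond into the sterol ring late in the pathway, had the lowest p. Its level was 43.0, 41.1, 37.8, 45.5 and 43.0 CPM in saline replicates 1 to 5, 29.7, 25.5, 29.2 and 22.2 CPM in bleomycin replicates 5 to 8, and 24.6, 25.8, 23.4 and 24.0 CPM in batch 2 replicates 1 to 4. Every bleomycin library of either batch lay below every saline library. In batch 1 the change was -0.66 (SE 0.11, n = 4 against 5, edgeR adjusted p = 0.000289).

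Idi1, the isomerase that makes the allylic isoprenoid unit, had the most negative change of the sterol branch. It stood at 13.6, 21.6, 15.3, 16.0 and 20.0 CPM in saline, at 10.1, 9.72, 10.2 and 6.91 CPM in batch 1 bleomycin, and at 3.99, 9.18, 8.96 and 7.47 CPM in batch 2. The saline and bleomycin libraries did not overlap. In batch 1 the log2 change was -0.90 (SE 0.22, edgeR adjusted p = 0.00540), which is 1.87-fold lower. Of the 50-base words of its transcripts, 25.3% also occur on either strand in other genes, most of them in Gm13502, so its counts are uncertain. A share of words is not a share of reads, so the size of that uncertainty is not known.

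Lss, the cyclase that closes squalene epoxide to lanosterol, was also lower. Its saline libraries held 28.4, 25.5, 30.0, 28.91 and 32.4 CPM, batch 1 bleomycin 15.6, 24.0, 15.6 and 17.2 CPM, and batch 2 19.4, 19.6, 21.6 and 18.7 CPM. No bleomycin library reached the lowest saline value. Its log2 change was -0.68 (SE 0.14, edgeR adjusted p = 0.00142).

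Msmo1, the methylsterol monooxygenase that starts removal of the 4-methyl groups, gave 33.0, 32.01, 26.6, 33.4 and 46.7 CPM in saline, 26.1, 23.9, 22.3 and 19.3 CPM in batch 1 bleomycin and 26.1, 23.0, 26.46 and 18.01 CPM in batch 2. The groups met closely, since the lowest saline library, at 26.6 CPM, was just above the highest bleomycin libraries. The fitted log2 change was -0.58 (SE 0.16, edgeR adjusted p = 0.0110).

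Sqle, squalene epoxidase, the first oxygen-using step of the pathway, gave 26.6, 26.4, 26.0, 25.1 and 38.4 CPM in saline, 23.8, 22.2, 20.7 and 19.0 CPM in batch 1 bleomycin and 20.6, 19.8, 24.6 and 20.1 CPM in batch 2. Saline replicate 5 stood well above the other 4, and no bleomycin library reached the lowest saline value. Between saline and batch 1 bleomycin the log2 change was -0.41 (SE 0.14, edgeR adjusted p = 0.0334). The call was lost without saline replicate 5 (-0.28, adjusted p = 0.0913), without bleomycin replicate 6 (0.0571), 7 (0.0774) or 8 (0.0648), and with no filter on low counts (0.0787).

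Hsd17b7, the 3-keto-sterol reductase, was the 1 sterol enzyme called higher. It held 10.7, 8.12, 8.94, 11.2 and 11.3 CPM in saline, 14.1, 14.4, 14.5 and 11.9 CPM in batch 1 bleomycin, and 12.8, 8.98, 8.37 and 10.98 CPM in batch 2. Batch 1 bleomycin lay above saline, while batch 2 overlapped saline, with means of 10.3 ± 2.01 (SD, n = 4) and 10.1 ± 1.45 CPM (SD, n = 5). In batch 1 the change was 0.45 (SE 0.16, edgeR adjusted p = 0.0474). The call was lost under 15 of 19 other settings tried, with adjusted p up to 0.150, and among them were the fits without saline replicate 1, 2, 3 or 4 and without bleomycin replicate 2, 3, 4, 5, 6, 7 or 8 (adjusted p = 0.0546 without bleomycin replicate 8).

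**Figure D2:**
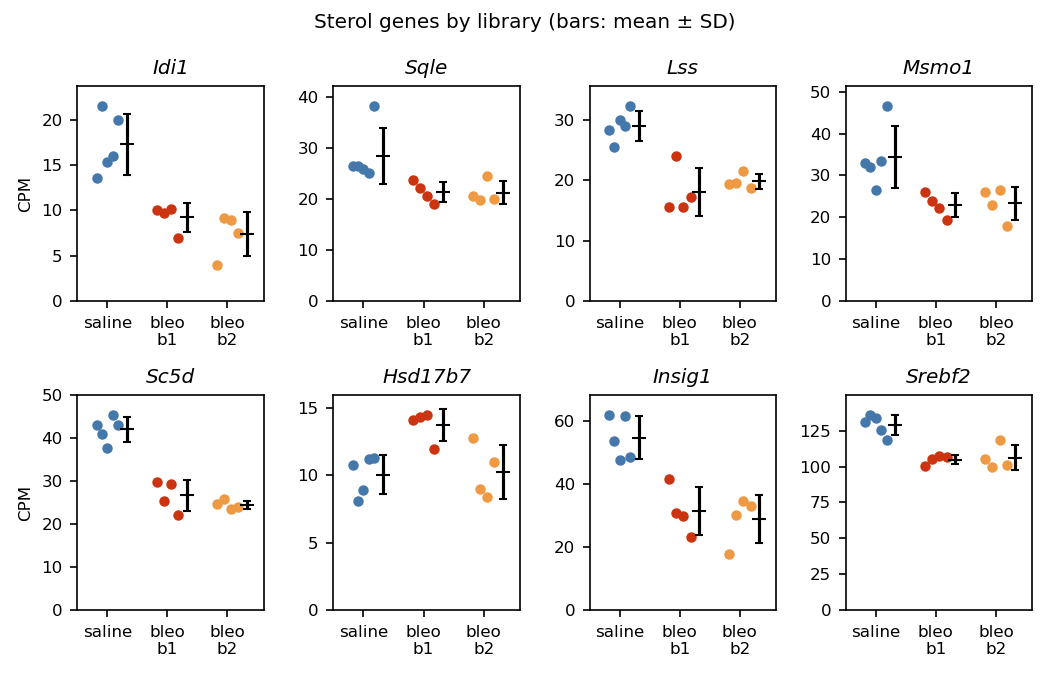
CPM of the called sterol enzymes and of the called regulators in each library, by group (b1 and b2 are batches 1 and 2), with the group mean and SD beside the points. Sc5d, Idi1, Lss, Msmo1 and Sqle sit lower in both bleomycin groups than in saline, while Hsd17b7 is higher in batch 1 bleomycin (11.9 to 14.5 CPM) and at the saline level in batch 2.

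The other 11 sterol enzymes did not pass the test. Among the mevalonate enzymes, Hmgcs1, HMG-CoA synthase, stood at 75.3 ± 6.02 CPM (SD, n = 5) in saline and 67.1 ± 12.9 CPM (SD, n = 4) in batch 1 bleomycin. Mvk and Pmvk, the mevalonate and phosphomevalonate kinases, had log2 changes of -0.10 and -0.03, and Mvd, the decarboxylase that follows them, had 0.51 (SE 0.21, edgeR adjusted p = 0.0751, and 0.0283 by limma-voom). Mvd was a low gene, at 3.99 ± 0.759 CPM in saline, 5.63 ± 0.875 in batch 1 bleomycin and 6.75 ± 0.515 CPM in batch 2.

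Fdps, farnesyl diphosphate synthase, just missed the threshold, at 5.13 ± 1.66 CPM in saline and 2.82 ± 1.09 CPM in batch 1 bleomycin (log2 -0.86, SE 0.33, edgeR adjusted p = 0.0547). It had as few as 16 counts in a library, and it was called lower by DESeq2, by limma-voom, with RLE factors, with TMM over protein-coding genes, and without saline replicate 2 or bleomycin replicate 3 or 6. Fdft1, squalene synthase, had a change of -0.33 (SE 0.17). Words shared with other genes made up 26.2% of Fdps (chiefly Gm43738) and a similar share of Fdft1 (chiefly Ctsb), so both are uncertain. The share was 11.6% for Hmgcs1 and 9.87% for Tm7sf2.

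Among the later ring-modifying enzymes, Cyp51, the lanosterol demethylase, was at 21.7 ± 3.89 CPM in saline and 23.7 ± 2.57 CPM in batch 1 bleomycin. Nsdhl, a sterol decarboxylating dehydrogenase, had -0.36 (SE 0.19) and Tm7sf2, a sterol reductase with as few as 13 counts in a library, had -0.23 (SE 0.28). The isomerase Ebp and the final reductase Dhcr7 both had a change of 0.01, with SE 0.13 and 0.21, and their sign turned under other scalings. The called and uncalled enzymes were mixed along the order of the pathway, with Lss, Msmo1 and Sc5d lower and Cyp51, Ebp and Dhcr7 not called between and after them.

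In the fatty acid branch, Scd2, Elovl5 and Fads2 were called with little spread in saline. Scd2 is a stearoyl-CoA desaturase, Elovl5 the elongase of polyunsaturated chains, and Fads2 the delta-6 desaturase that starts polyunsaturated chain synthesis. Scd2 held 549.7, 582.7, 648.8, 569.6 and 558.6 CPM in saline, 451.7, 472.2, 439.6 and 363.4 CPM in batch 1 bleomycin and 475.1, 504.4, 491.8 and 447.7 CPM in batch 2. No bleomycin library reached the lowest saline value. In batch 1 the log2 change was -0.43 (SE 0.09, edgeR adjusted p = 0.00217).

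Elovl5 held 178.9, 187.6, 186.8, 164.4 and 169.7 CPM in saline, 134.6, 126.6, 137.2 and 87.3 CPM in batch 1 bleomycin and 99.6, 116.2, 110.0 and 107.9 CPM in batch 2. All 8 bleomycin libraries lay below all 5 saline libraries. Its log2 change was -0.55 (SE 0.11, edgeR adjusted p = 0.00192), and -0.45 without bleomycin replicate 8, its lowest library.

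Fads2 went the other way. It held 27.7, 31.8, 31.7, 24.4 and 26.0 CPM in saline, 37.7, 42.8, 45.4 and 35.3 CPM in batch 1 bleomycin and 50.2, 47.5, 49.5 and 45.5 CPM in batch 2. All 8 bleomycin libraries lay above all 5 saline libraries. The fitted log2 change was 0.51 (SE 0.11, edgeR adjusted p = 0.00227), and no alternative ended this call. Fads1, the delta-5 desaturase of the same route, stood at 74.7 ± 5.43 CPM in saline and 63.6 ± 8.28 CPM in batch 1 bleomycin (log2 -0.23, SE 0.10, edgeR adjusted p = 0.0823). It was called lower under RLE size factors (0.0450), TMM over protein-coding genes (0.0398) and DESeq2 (0.0416), without saline replicate 4 (0.0479), and with the adipocyte covariate described below (0.0234).

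Elovl6, which extends palmitate to stearate, had the most negative change of the 31, but its libraries spread widely. It held 69.6, 68.4, 24.2, 122.1 and 39.9 CPM in saline, 33.8, 15.9, 24.7 and 15.7 CPM in batch 1 bleomycin and 16.3, 41.7, 19.3 and 15.5 CPM in batch 2. The groups overlapped, since saline replicate 3 lay below bleomycin replicates 5 and 7. Between saline and batch 1 bleomycin the log2 change was -1.52 (SE 0.49, edgeR adjusted p = 0.0360). The call was lost without saline replicate 1 (0.0606), 2 (0.0577) or 4 (0.0638), without bleomycin replicate 6 (0.0951), 7 (0.0704) or 8 (0.0857), with no filter (0.0763) and with only the libraries compared in the fit (0.0529).

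Acly, Acaca, Fasn and Scd1, which make acetyl-CoA, malonyl-CoA, palmitate and its monounsaturated product, were not called. Fasn, fatty acid synthase, held 885, 897, 434, 1484 and 445 CPM in saline, 716, 284, 368 and 294 CPM in batch 1 bleomycin and 317, 1171, 779 and 598 CPM in batch 2. The groups overlapped, with 3 of the 4 batch 1 bleomycin libraries below the lowest saline library. In batch 1 the log2 change was -0.996 (SE 0.48, edgeR adjusted p = 0.147).

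Scd1, the other stearoyl-CoA desaturase, held 2790, 2636, 1269, 4291 and 1305 CPM in saline, 2724, 926, 1622 and 910 CPM in batch 1 bleomycin and 1362, 3246, 2623 and 2224 CPM in batch 2 (log2 -0.67, SE 0.46, edgeR adjusted p = 0.2996). As for Fasn, saline replicate 4 was the highest and replicate 3 the lowest saline library. The ratio of Scd1 to Scd2 CPM ran from 1.96 in saline replicate 3 to 7.53 in saline replicate 4.

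Acaca, acetyl-CoA carboxylase, held 198.5, 177.9, 109.4, 344.1 and 123.8 CPM in saline, 157.7, 81.9, 93.7 and 85.8 CPM in batch 1 bleomycin and 63.8, 169, 109 and 85.1 CPM in batch 2 (log2 -0.86, SE 0.39, edgeR adjusted p = 0.118). Words shared with other genes made up 30.4% of Acaca, most with Gm5182. Acly, ATP citrate lyase, held 214 ± 65.6 CPM in saline, 145 ± 40.3 CPM in batch 1 bleomycin and 186 ± 56.1 CPM in batch 2 (log2 -0.56, SE 0.26, edgeR adjusted p = 0.121). It was called lower by DESeq2 (0.0306) and without bleomycin replicate 5 (0.0453).

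**Figure D3:**
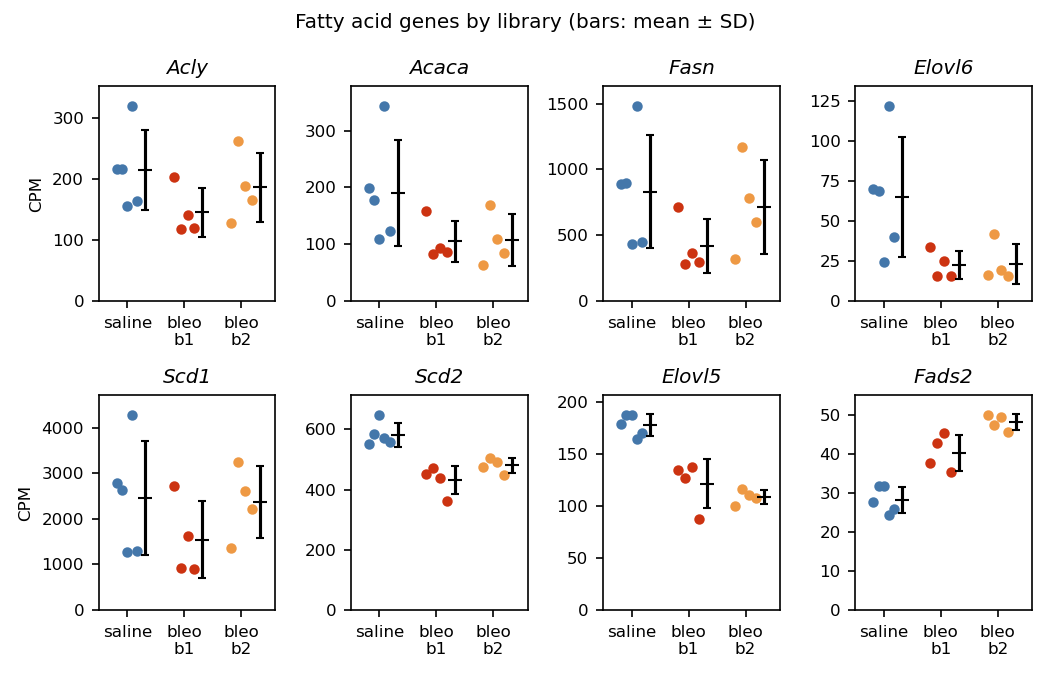
CPM of 8 fatty acid branch enzymes in each library by group (b1 and b2 are batches 1 and 2), with the group mean and SD beside the points. Acly, Acaca, Fasn, Elovl6 and Scd1 spread widely within each group. Their highest saline library is replicate 4 and their lowest is replicate 3. Scd2, Elovl5 and Fads2 spread less, and each separates saline from both bleomycin groups.

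The 5 enzymes Acly, Acaca, Fasn, Elovl6 and Scd1 were set apart from the other 5 after their values were seen. Their highest saline library was 2.05 to 5.05 times the lowest (median 3.38), and the standard errors of their log2 changes were 0.26 to 0.49. For Scd2, Elovl1, Elovl5, Fads1 and Fads2 the ratio was 1.14 to 1.53 and the standard errors 0.09 to 0.23. The split rests on saline. In bleomycin the ratio was 1.88 (batch 1) and 1.96 (batch 2) for Elovl1, and 1.57 (batch 1) for Elovl5. Elovl1, an elongase of very long saturated chains, had a change of 0.03 (SE 0.23), whose sign turned under other scalings. In all 5 of the first group, saline replicate 4 was the highest saline library and saline replicate 3 the lowest.

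The same libraries differed in adipocyte markers. The summed level of 8 markers was 225 to 968 CPM across saline, 128 to 507 CPM across batch 1 bleomycin and 99.8 to 457 CPM in batch 2, led by Car3 and Fabp4, the latter also made by lung capillary cells and macrophages. None of the 8 was called by edgeR, DESeq2 or limma-voom, with 0, 1 and 3 of them at an unadjusted p under 0.05, and their median log2 change by edgeR was -0.92. Saline replicate 4 had the highest summed level and replicate 3 the lowest in saline. Bleomycin replicate 8 went against this order, with the highest marker sum of batch 1 bleomycin (507 CPM) beside a low Fasn level (294 CPM). By the mean log2 level used below, bleomycin replicate 5 was the higher, at 4.69 against 4.49 for replicate 8. Ucp1, a brown fat gene, was at 0 in saline replicate 3 and bleomycin replicate 1 and at 125 CPM in saline replicate 4, and Lep, leptin, was at 0 in bleomycin replicates 7, 1 and 4. Ucp1 and Lep were named after their values were seen.

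Over the 13 libraries, with each group's mean removed and permutation within groups, 62 relations between a member and a marker level (31 with adipocyte markers, 31 with type 2 markers) were computed, with permutation p-values adjusted over all of them. With the mean log2 adipocyte level, Pearson's r was 0.901 for Fasn (adjusted p = 0.0149, Spearman's rho 0.929), 0.875 for Acaca (0.0149, rho 0.907), 0.856 for Acly (0.0267, rho 0.912) and 0.809 for Scd1 (0.0490, rho 0.802). Elovl6 had r = 0.746 (adjusted permutation p = 0.0870), and Ebp had a negative r of -0.753 (0.0491, rho -0.841). Adjusted permutation p-values for rho were 0.00517 for Fasn, Acaca and Acly, 0.0289 for Scd1 and 0.0149 for Ebp.

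Without the 2 libraries farthest from the median adipocyte level, r was 0.829 for Fasn, 0.827 for Acaca, 0.791 for Acly, 0.732 for Scd1 and -0.807 for Ebp. Within the 9 libraries of batch 1 it was 0.854, 0.862, 0.823, 0.782 and -0.817 in the same order. Batch 2 held 4 libraries, too few to read a relation from, and there r was 0.980, 0.913, 0.922, 0.994 and -0.731 in that order. For the enzymes called with little spread in saline, r over all libraries was -0.251 for Scd2, -0.0575 for Elovl5 and -0.481 for Fads2. In the 4 libraries of batch 2 alone it was 0.467, 0.972 and -0.387 in that order. Fads1, set with them above, had a more negative r of -0.660 over all libraries, which did not pass (adjusted permutation p = 0.118). Its r was -0.652 within batch 1 and -0.768 in batch 2. For Elovl1 r was 0.0488 over all libraries, -0.130 within batch 1 and 0.252 in batch 2. With the type 2 marker level, 0 of 31 relations passed, the highest r being 0.848 for Insig1 (adjusted permutation p = 0.0870).

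**Figure D4:**
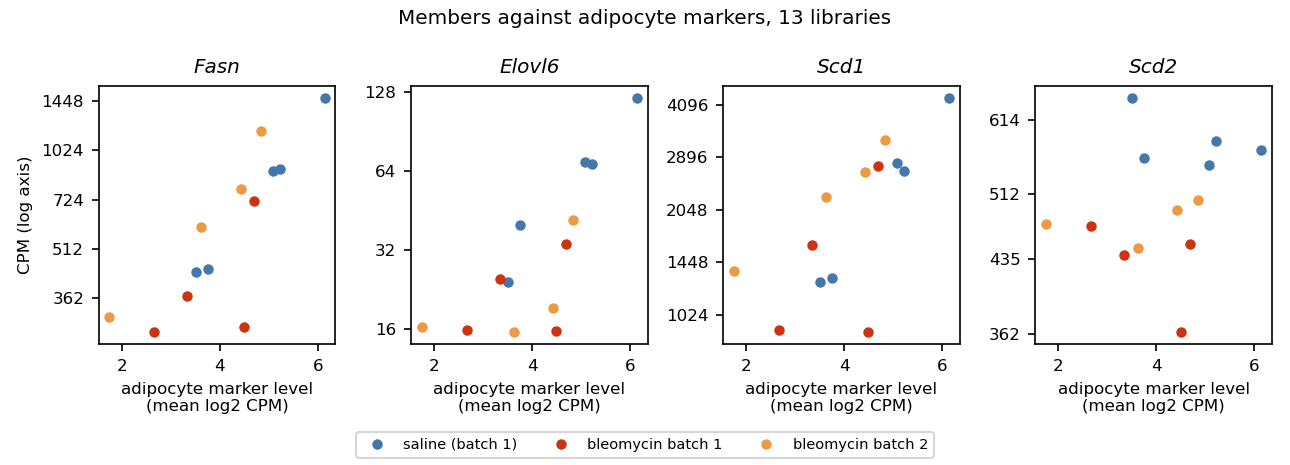
CPM of Fasn, Elovl6, Scd1 and Scd2 on log axes against the mean log2 CPM of 8 adipocyte markers in each of the 13 libraries, coloured by group. Fasn is higher where the marker level is higher (r = 0.901 with group means removed), and for Scd2 r is -0.251.

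With the adipocyte level added to the fit as a covariate, an alternative chosen after seeing the data, the median change of the 5 widely spread enzymes moved from -0.86 to -0.34 and none was called. Fasn went to -0.34, Scd1 to -0.09 and Elovl6 to -0.90 (edgeR adjusted p = 0.0757). Scd2 was at -0.45 (0.00344), Elovl5 at -0.55 (0.00457), Fads2 at 0.45 (0.00887), Sc5d at -0.63 and Idi1 at -0.80 (0.0198). The branch medians moved from -0.55 to -0.32 for the fatty acid enzymes and from -0.23 to -0.15 for the sterol enzymes. Of the 12 called members, 10 kept their call, Elovl6 and Hsd17b7 lost it, and Fads1 gained one, lower at -0.31 (edgeR adjusted p = 0.0234). The adipocyte level itself was lower in batch 1 bleomycin, with a median of 3.91 against 5.08 in saline on the log2 scale. The covariate can therefore also take out part of a treatment difference. The part of adipocyte content in the changes was not tested.

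Type 2 cell markers also moved with treatment. Of 10 markers 5 were lower and none was higher, with a median of -0.80. The 5 were Sftpc (-1.31), Sftpa1 (-1.03), Sftpb (-0.64), Slc34a2 (-0.97) and Etv5 (-0.71). Their part in the lower levels of the synthesis genes was not tested. Of 8 macrophage markers 7 were higher, with the 2 most abundant, Mrc1 and C1qb, at 1.22 and 2.90, and with summed levels of 161 to 176 CPM across saline, 365 to 775 CPM across batch 1 bleomycin and 453 to 749 CPM in batch 2. Of 6 fibroblast markers 3 were higher (Col3a1 at 2.68, Col1a1 at 3.23 and Lpl at 0.77) and 2 lower (Inmt at -2.53 and Tcf21 at -1.13), and all 3 club cell markers were lower, with Scgb1a1 at -1.80, Cyp2f2 at -1.49 and Scgb3a2 at -1.06. The part of these cell types in the results was not tested either. Among saline libraries Lpl was highest in replicate 4 (380 CPM), as was the adipocyte marker sum, and lowest in replicate 5 (151 CPM).

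Among the regulators, Insig1, the protein that holds SREBP precursors in the endoplasmic reticulum, held 62.2, 53.8, 47.9, 61.7 and 48.8 CPM in saline, 41.8, 30.8, 29.8 and 23.3 CPM in batch 1 bleomycin and 17.8, 30.3, 34.7 and 33.0 CPM in batch 2. No bleomycin library reached the lowest saline value. Its log2 change was -0.80 (SE 0.19, edgeR adjusted p = 0.00429).

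Srebf2, which encodes the SREBP that drives sterol genes, held 131.4, 136.3, 133.7, 125.8 and 118.2 CPM in saline, 100.2, 105.1, 107.6 and 106.5 CPM in batch 1 bleomycin and 105.5, 99.4, 118.8 and 100.9 CPM in batch 2. The batch 1 groups did not overlap, and 1 batch 2 library lay just above the lowest saline library. The fitted log2 change was -0.30 (SE 0.08, edgeR adjusted p = 0.00831), and the call was lost with no filter on low counts (0.0751). Srebf1, which encodes the SREBP that drives fatty acid genes, stood at 56.7 ± 3.32 CPM in saline and 54.2 ± 6.51 CPM in batch 1 bleomycin (log2 -0.06, SE 0.11). Stard4, a cytosolic sterol carrier, had a change of -0.22 (SE 0.11, edgeR adjusted p = 0.152).

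Batch 2 bleomycin was compared with batch 1 bleomycin. None of the 31 genes was called by edgeR, DESeq2 or limma-voom, with 3 at an unadjusted p under 0.05 by each tool and edgeR adjusted p-values of 0.262 to 0.990, while 1.68% of all genes were called. Without bleomycin replicate 8, 1 gene was called: Elovl5, lower in batch 2 by log2 -0.30 (SE 0.08, edgeR adjusted p = 0.0454). Against saline, where batch and treatment cannot be told apart, batch 2 lay on the same side as batch 1 for 12 of the 12 called genes, and for 9 of them every batch 2 library lay beyond the saline range. The saline libraries are the same in both, so this is not independent of the batch 1 result. The same counts over all genes are not given, so no background share stands beside them and no conclusion is drawn from them. Among the called genes, Hsd17b7 differed between batch 2 and saline by only 0.019 on the log2 scale, and its libraries overlapped. Batch 2 minus saline medians were -0.30 for the sterol branch and -0.21 for the fatty acid branch.

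**Figure D5:**
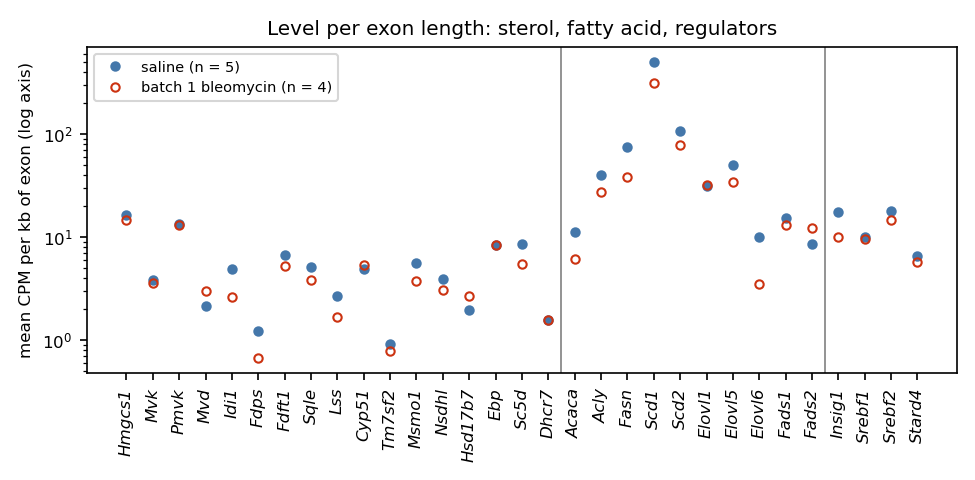
Mean saline level of each of the 31 genes in CPM per kb of exon on a log axis, with batch 1 bleomycin as open points, and lines between the sterol, fatty acid and regulator genes. In saline Scd1 is highest at 502 CPM per kb, followed by Scd2 at 106 and Fasn at 75.8, and the sterol enzymes lie between 0.926 and 16.4.

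Per kb of exon, the fatty acid enzymes were the more abundant branch in saline lung, with a median of 35.9 CPM per kb (8.597 to 502) against 4.92 CPM per kb (0.926 to 16.4) for the sterol enzymes. Scd1, Scd2 and Fasn ranked first among the 31, and Hmgcs1 was the highest sterol enzyme at 16.4 CPM per kb. Tm7sf2, at 0.926, and Fdps, at 1.22, were the lowest. Exon length here joins all annotated exons of a gene, which lowers the level where many variant exons are annotated. These ranks and medians rest on that length. The levels of the widely spread enzymes rest on the libraries described above.

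Other genes of lipid handling were examined from lists. Of 17 genes of sterol uptake, storage and efflux tested, 8 (47.1%, against 17.5% of all genes) were higher by edgeR, with a median of 0.29. None was called lower by edgeR, DESeq2 or limma-voom. At an unadjusted p under 0.05 none was lower by edgeR or limma-voom, 1 was by DESeq2 and 1 with the adipocyte covariate. DESeq2 and the covariate fit each called 7 higher, and limma-voom 8. Scarb1, the HDL receptor, was at 46.3 ± 4.93 CPM in saline and 100.4 ± 15.7 CPM in batch 1 bleomycin (log2 1.11, SE 0.12, edgeR adjusted p = 1.03e-05). Apoe, a lipid-carrying apolipoprotein also made by macrophages, rose by 2.32 on the log2 scale, Ch25h, which makes 25-hydroxycholesterol, by 3.22, and Lipa, the lysosomal lipase, by 0.85.

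Of 27 genes of fatty acid activation and glycerolipid synthesis, 5 were lower and 1 was higher, with a median of -0.60. Lower calls took 18.5% of the list, near the 13.4% of all genes, and calls in either direction 22.2%, under the 30.9% of all genes. Acsl3, an acyl-CoA synthetase, fell by 0.68 on the log2 scale, Gpam, which starts glycerolipid synthesis, fell by 0.72, and Acss2, which makes acetyl-CoA from acetate, fell by 1.14. Agpat2 and Lpin1, which act after Gpam, fell by 1.21 and 0.52. Agpat2 held 39.0, 34.2, 17.6, 65.9 and 19.4 CPM in saline, highest in replicate 4 and lowest in replicate 3, as was the adipocyte marker sum. With the adipocyte covariate the list median was -0.29, Agpat2 was at -0.63 and Acss2 at -0.74, and 6 genes were called lower and 2 higher. DESeq2 called 12 of the 27 lower, limma-voom 7. Plin2, a coat protein of lipid droplets, rose by 0.76. Of 12 genes of fatty acid oxidation none was called by edgeR or DESeq2 in either direction, with 2 and 1 of them at an unadjusted p under 0.05, and limma-voom called 1 lower, Ppara. The edgeR median of these genes was -0.03. With the adipocyte covariate it was 0.25, and 3 of the 12 were called higher, Acadvl, Hadha and Pdk4, and none lower.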

How the data were processed

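The authors deposited whole-number counts per gene symbol, without normalization, for 13 libraries. The submitters' processing notes name cutadapt 4.4, STAR 2.7.10b, featureCounts 2.0.3, DESeq2 1.42.1 and genome build mm39. The sources used here do not state their settings, strand use, use of molecular identifiers, annotation, or how reads shared by several genes were counted. A second deposited table of normalized values was not used.

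Genes were kept by filterByExpr over the 3 groups, scaled by TMM and fitted in edgeR 4.0.16 (R 4.3.3) with robust quasi-likelihood fits, all 13 libraries sharing 1 spread estimate. Genes with an adjusted p under 0.05 were called, Benjamini-Hochberg adjusted over 20468 genes. The biological coefficient of variation was 0.306, and a standard error is the absolute log2 change over the root of the F statistic. CPM are TMM-scaled, and log2 levels per library used a prior count of 2. DESeq2 1.42.0 and limma 3.58.1 (voom), other scalings, no filter and leaving out each library were alternatives. Exon lengths and shared 50-base words came from GENCODE M21, matched by symbol for 97.0% of genes tested, without coordinates. By rule, each called member is given with every library, the others by mean and SD, up to 4 called genes per other pathway list and the 2 most abundant of each marker list. Values by library for Fasn, Scd1 and Acaca, and further named genes of the glycerolipid and marker lists, were added after their values were seen. The members and lists were chosen with earlier results of these data known. Library precision is limited by the shallowest totals given in the report. A list of accessory sterol genes is not reported here.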

Additional observations from a re-analysis of the deposited data

Results flagged for a closer look

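In each group of 4 or 5 libraries, a library was marked when its gap to the nearest other library was too large for the group's range by Dixon's test. Of 93 gene and group combinations 10 were marked, and chance marks about 1 in 20. Among called genes, Sqle was at 38.4 CPM in saline replicate 5 against 25.1 to 26.6 in the other saline libraries, and at 24.6 CPM in batch 2 bleomycin replicate 3 against 19.8 to 20.6. Elovl6 was at 41.7 CPM in batch 2 bleomycin replicate 2 against 15.5 to 19.3 CPM.

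The library labelled bleomycin replicate 8 was apart in 4 genes of batch 1: Idi1 at 6.91 CPM (others 9.72 to 10.2), Hsd17b7 at 11.9 CPM (14.1 to 14.5), Srebf1 at 64.0 CPM (50.7 to 51.3) and Pmvk at 23.3 CPM (22.0 to 22.2). Acaca was at 158 CPM in batch 1 bleomycin replicate 5 against 81.9 to 93.7 CPM. Nsdhl was at 15.7 CPM in saline replicate 4 against 9.41 to 10.6 CPM, and Stard4 was at 27.2 CPM in batch 2 bleomycin replicate 2 against 32.1 to 32.7 CPM. Bleomycin replicate 8 is the library whose title says control.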

How the results depend on the processing

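Over 19 other settings the 31 genes gave 589 values, of which 511 kept direction and side of the threshold, 29 lost a call, 14 gained one and 35 changed sign. The sign changes fell in Mvk, Pmvk, Ebp, Dhcr7 and Elovl1, none of them called, and their cause was not tested. Ebp went to -0.038 under RLE, -0.052 with TMM over coding genes, -0.036 by DESeq2, -0.023 with only the libraries compared and -0.10 with the adipocyte covariate. Dhcr7 went to -0.037, -0.048, -0.037 and -0.027 under RLE, coding TMM, DESeq2 and only the libraries compared, and to -0.022 by limma-voom. Elovl1 went to -0.012 (RLE), -0.024 (coding TMM), -0.012 (DESeq2) and -0.0044 (limma-voom), Pmvk to 0.056 (limma-voom), 0.0026 (no filter) and 0.026 (covariate), and Srebf1 to 0.030 (covariate). Leaving out 1 library gave -0.29 to 0.0087 for Mvk, -0.14 to 0.068 for Pmvk, -0.072 to 0.10 for Ebp, -0.13 to 0.15 for Dhcr7 and -0.11 to 0.14 for Elovl1. Members called higher went from 2 to 1 under RLE, coding TMM, no filter, only the libraries compared and the covariate, and were 1 to 2 leaving out 1 library, because Hsd17b7 lost its call. Fatty acid enzymes called lower went from 3 to 5 by DESeq2. Batch 2 against batch 1 gave 0 to 1 called members. Leaving out 1 library, members called lower were 8 to 11, the sterol median -0.29 to -0.18 and the fatty acid median -0.68 to -0.44. The covariate was chosen after seeing the data. No paired analysis was possible because no label pairs a bleomycin library with a saline library. Low counts limit Tm7sf2 and Fdps, with lowest counts of 13 and 16.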
